A study of Ovis aries with 2 samples.

Results

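Genes that carry, make, bind, sense and remove retinoic acid were followed through early sheep embryos: RBP4, ALDH1A2, CRABP1, CRABP2, RARB and CYP26A1, 6 of the 26478 features counted in each cell. The genes were chosen by name for their known roles, with no threshold on a measured value but with earlier results of these data known. Each matched 1 feature by its symbol. Their levels were read by cell type in 2 single-cell libraries of sheep embryos at embryonic day 16. One library came from Ujumqin sheep, the control breed, and the other from Hulunbuir Short-tail sheep. The series describes n = 3 per breed, but each breed is 1 library in which embryos cannot be told apart, so breed and library cannot be told apart either. Ewes of both breeds were of the same age and were brought into oestrus with progesterone sponges and PMSG, a gonadotrophin, before mating. No allele is named for either breed, extraembryonic tissue was trimmed away with forceps, and red blood cells were lysed before the dissociated cells were loaded for 10x Chromium 3' v3 libraries. With 1 library per breed no test between breeds or cell types was possible. Every level is given with a 95% interval that covers counting error only.

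Retinoic acid is a small signalling molecule made from vitamin A, and it reaches the nucleus of nearby cells, where it binds receptors that sit on DNA. RBP4 carries retinol in the blood, ALDH1A2 (RALDH2) makes retinoic acid from retinal in the trunk mesoderm, CRABP1 and CRABP2 bind it in the cytoplasm, RARB is a receptor whose own gene is a classic target of it, and CYP26A1 breaks it down. In vertebrate embryos the trunk mesoderm is the known source and the tail bud, rich in FGF and WNT signals, is the known place of removal, so that the growing caudal end is kept low in retinoic acid.

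Cells were kept when they had at least 200 genes and under 10% mitochondrial UMIs (unique molecular identifiers, 1 per captured transcript). The Ujumqin library kept 14554 of 17059 barcodes, with a median of 9519 UMIs, and the Hulunbuir library kept 9583 of 10709, with a median of 11879. The libraries shared 61 barcode sequences, 50 of them kept in both. A cell was placed in a gate, written below by the name of its list, when it had a UMI of at least 3 of the list's 10 markers and of more than of any other of the 18 lists. Gates are therefore marker-like groups and not annotated types, doublets were not removed, and 49.96% of Ujumqin and 54.6% of Hulunbuir kept cells fell in no gate. The libraries differed in make-up: the erythroid gate held 5075 Ujumqin and 4 Hulunbuir cells, the extraembryonic (ExE) endoderm gate 534 and 10, and the caudal progenitor gate 9 and 788. Depth differed too: outside the erythroid gate the median was 1694 UMIs in the Ujumqin and 11883 in the Hulunbuir library, and a shallow cell is less likely to show 3 markers. Gates of 50 cells or more, 8 in the Ujumqin and 11 in the Hulunbuir library, are described. The Ujumqin splanchnic gate, 108 cells, had none of its own markers among its 10 leading genes but held the mesenchyme markers DCN and LUM there, and is left unnamed. The Hulunbuir intermediate mesoderm gate, 78 cells, was led by SST, DLK1, C1QA and INS before its own EMX2, LHX1 and WT1. Levels are UMIs per 1000000 UMIs of the gate (CPM), and because a 3' kit captures transcripts unevenly they are compared between cells and not between genes.

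CYP26A1, the enzyme that clears retinoic acid, was concentrated in the caudal progenitor gate of the Hulunbuir library. This gate was built on T, CDX1, CDX2, CDX4, FGF8, FGF17, WNT3A, WNT5B, NKX1-2 and SP5, none of them a retinoid gene, and CYP26A1 stood among its 10 leading genes. The gate held 456 CYP26A1 UMIs, a level of 41.3 CPM (37.6 to 45.3) and 64.9% of all CYP26A1 UMIs of the kept Hulunbuir cells. Of its 788 cells, 225 had a UMI (28.6%), with 2.03 UMIs per positive cell. The next gates were presomitic mesoderm at 8.76 CPM (4.38 to 15.7, 11 UMIs) and allantois epithelium at 3.66 CPM (2.37 to 5.4, 25 UMIs). The caudal interval lay above both, and the intervals of these last gates overlapped each other. Cardiomyocytes and allantois mesenchyme were at 2.54 and 1.07 CPM on 2 and 6 UMIs, and neural tube, mesenchyme, splanchnic mesoderm and endothelium lay between 0.215 and 0.993 CPM. No CYP26A1 UMI was found in the somite gate or in the intermediate mesoderm gate, which allows levels of up to 3.73 and 2.94 CPM.

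**Figure D1:**
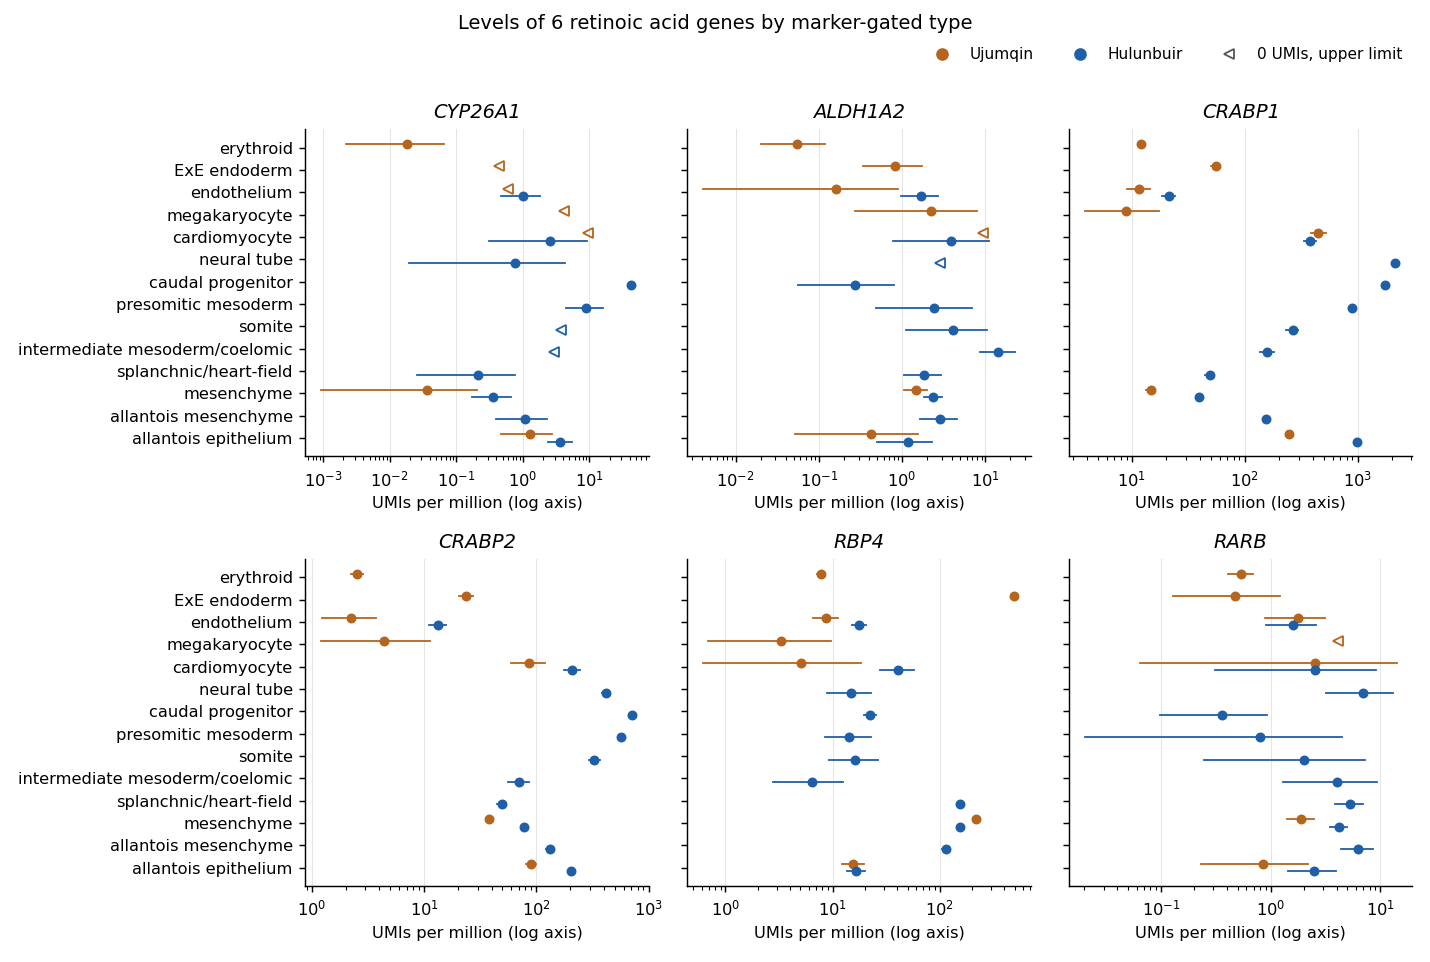
Levels of the 6 genes (CPM, log axis, 1 panel per gene) by marker-gated type, brown for the Ujumqin and blue for the Hulunbuir library; bars are 95% counting intervals, and open triangles mark the upper limit where a gate held 0 UMIs. Gates under 50 cells and the unnamed Ujumqin gate are left out. CYP26A1 peaks in the Hulunbuir caudal progenitor gate at 41.3, RBP4 in the Ujumqin ExE endoderm gate at 488 (222 without cells that reached several lists, beside 214 in mesenchyme).

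Shares were compared at equal depth. With every cell thinned to 1000 UMIs, CYP26A1 was still found in 3.81% of caudal progenitor cells (2.58 to 5.39). It was found in 1 of 97 presomitic cells (1.03%, 0.0261 to 5.61), an interval that holds the caudal share. Allantois epithelium was at 0.741% and mesenchyme at 0.128%. Of 420 endothelial cells 0 had a UMI, which allows a share of up to 0.874%. Free RNA and doublets can give positive droplets in any type, and their share was not measured. Endothelium of the same library is set beside the caudal gate only for comparison. Unthinned, 1.64% of Hulunbuir endothelial cells (median 18997 UMIs) had a CYP26A1 UMI, against 28.6% in the caudal gate at a median of 12862.

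Within the caudal progenitor gate CYP26A1 rose with the number of caudal markers a cell carried. Cells with 3 markers, 338 in all, had 25.7 CPM, those with 4 had 43.6 CPM and those with 5 had 55.7 CPM. The 27 cells with 6 or more had 96.1 CPM (71.5 to 126). The order is a description of 1 gate, and deeper cells show more markers: the median depth went from 11924 UMIs at 3 markers to 16825 at 6 or more, while CPM is a level per UMI.

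The Ujumqin library held almost no CYP26A1. Its 14554 kept cells gave 18 UMIs, of which 6 came from 1 cell of the allantois epithelium gate (1.28 CPM, 0.469 to 2.78), 2 from erythroid cells and 1 from the mesenchyme gate. Another 6 UMIs lay in the 9 cells of its caudal progenitor gate, a gate under the size limit that was looked at after its values were seen. These few cells, 4 of them positive, had 70.9 CPM (26.0 to 154), and the Hulunbuir level differed from it by a log2 of −0.78 with an interval of −1.91 to 0.67. A lower level per caudal cell was thus not detectable at this depth. With cells outside the erythroid gate thinned to 5000 UMIs, a choice made after seeing the data, the caudal gate took 0.0961% of 3121 Ujumqin cells (0.0198 to 0.281) and 4.68% of 7536 Hulunbuir cells (4.22 to 5.19). CYP26A1 was found in 0.0641% (0.00776 to 0.231) and 2.49% (2.15 to 2.87) of the same cells, so both were rarer in the Ujumqin library at equal depth. This thinning left out 6358 Ujumqin and 2043 Hulunbuir cells as too shallow.

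ALDH1A2, the enzyme that makes retinoic acid in trunk mesoderm, was low everywhere and spread over many gates. Its highest level was in the Hulunbuir intermediate mesoderm gate, with 18 UMIs and 14.4 CPM (8.52 to 22.7). Below it came somite at 4.04 CPM (1.10 to 10.3), cardiomyocytes at 3.82 CPM (0.787 to 11.2, 3 UMIs), allantois mesenchyme at 2.85 CPM (1.63 to 4.63) and mesenchyme at 2.38 CPM (1.85 to 3.02, 67 UMIs). Intervals of somite and intermediate mesoderm overlapped, as did those of most neighbours further down. The caudal progenitor gate was at 0.272 CPM (0.0560 to 0.794, 3 UMIs). Its interval lay under those of intermediate mesoderm, somite, mesenchyme, allantois mesenchyme and splanchnic mesoderm, and overlapped that of presomitic mesoderm at 2.39 CPM (0.493 to 6.99, 3 UMIs). The neural tube gate had none, which allows up to 2.85 CPM. In the Ujumqin library megakaryocytes were at 2.22 CPM on 2 UMIs (0.269 to 8.02), the mesenchyme gate stood at 1.48 CPM (1.06 to 2.02, 40 UMIs), endothelium at 0.160 CPM and the erythroid gate at 0.0544 CPM.

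The ALDH1A2 of the intermediate mesoderm gate lay in cells that carried RNA of SST, INS or C1QA, genes for a neuropeptide hormone, insulin and a complement protein. A split made after the values were seen gave all 18 UMIs to the 53 cells with at least 1 of these RNAs, a level of 20.04 CPM (11.9 to 31.7). The other 25 cells had none, which allows up to 10.4 CPM. The same was found elsewhere in the library: 125 cells outside the gate with UMIs of 2 or 3 of the genes had 12.1 CPM of ALDH1A2 (7.27 to 18.9). Over all 161 kept cells with 2 or 3 of them ALDH1A2 was at 15.9 CPM (11.01 to 22.2) and CYP26A1 at 0 UMIs, an upper limit of 1.73 CPM. The gate's rank rests on these SST, INS and C1QA cells of the Hulunbuir library, and what the cells are was not tested.

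Of the Hulunbuir ALDH1A2 UMIs 52.9% were outside any gate, so single genes of the body axis were also used to group cells, a choice made after seeing the data. Cells with a UMI of NKX1-2 (11 cells), a marker of the axial progenitors, had 89.8 CPM of CYP26A1 (49.1 to 151) and no ALDH1A2. Cells with T, or Brachyury (106 cells), the tail-bud factor, had 76.7 CPM (63.3 to 92.1) and 0.673 CPM, and those with TBX6 (25 cells) had 37.4 CPM (21.4 to 60.7) and 2.34 CPM. Not all caudal factors marked such high levels: cells with CDX4 (1128 cells) had 25.2 CPM (22.8 to 27.9) and those with CDX2 (1738 cells) 20.1 CPM (18.3 to 21.9).

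In the groups shown in the plot of levels along the body axis CYP26A1 was lower away from the tail bud. Cells with MSGN1 (67 cells), a factor of the presomitic mesoderm, had 14.2 CPM of CYP26A1 (7.97 to 23.5). Those with RIPPLY2 (288 cells), which marks the segment being formed, had 4.02 CPM (2.45 to 6.21) and 2.01 CPM of ALDH1A2 (0.964 to 3.70). Their RBP4, at 88.2 CPM, lay between the presomitic gate at 14.3 CPM and the mesenchyme gate at 155 CPM. The part of mesenchyme-like cells in their CYP26A1 and ALDH1A2 values was not tested. The presomitic gate itself had 8.76 CPM of CYP26A1 (4.38 to 15.7). In cells with MEOX1 (349 cells), a somite factor, CYP26A1 stayed at 4.13 CPM (2.53 to 6.38) and ALDH1A2 was at 8.06 CPM (5.73 to 11.02), above the interval of the RIPPLY2 cells. The somite factors UNCX (43 cells) and TCF15 (67 cells) gave ALDH1A2 levels of 9.89 and 2.20 CPM on 8 and 3 UMIs. PAX3, also on the list of somite factors, did not follow: its 780 cells had 19.2 CPM of CYP26A1 (16.7 to 21.9) and 1.87 CPM of ALDH1A2. Cells with WT1 (151 cells), a factor of the coelomic lining, had 10.9 CPM of ALDH1A2 (7.13 to 16.0) and no CYP26A1, which allows up to 1.55 CPM. WT1 was a leading gene of the intermediate mesoderm gate, whose ALDH1A2 lay in the SST, INS and C1QA cells. How many WT1 cells are such cells was not tested. MEOX1 cells of the Ujumqin library, which held few caudal cells, had 6.98 CPM of ALDH1A2 (4.47 to 10.4) over 150 cells, and this interval overlapped the Hulunbuir one. Groups by 1 gene overlap, since a cell can carry several of them, and groups of under 30 cells rest on few UMIs.

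**Figure D2:**
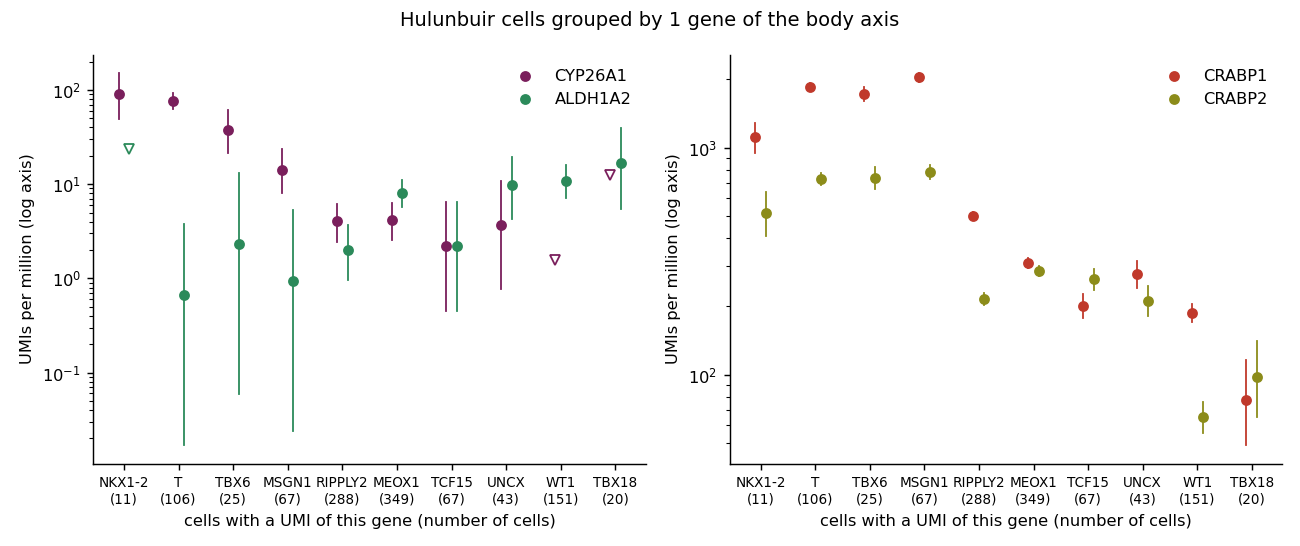
Levels in Hulunbuir cells grouped by a UMI of 1 gene of the body axis, from the caudal end at the left (number of cells in brackets), with CYP26A1 and ALDH1A2 in the left panel and CRABP1 and CRABP2 in the right one (CPM, log axis, 95% counting intervals; open triangles mark upper limits at 0 UMIs). CYP26A1 goes from 89.8 in NKX1-2 cells to 0 UMIs in WT1 and TBX18 cells, while ALDH1A2 is at 8.06 in MEOX1 cells.

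Cells with a UMI of CYP26A1 were next set against cells with a UMI of ALDH1A2, outside the erythroid gate. The Hulunbuir library had 372 cells with CYP26A1 alone (3.88%), 276 with ALDH1A2 alone (2.88%) and 4 with both. The Ujumqin library had 9, 141 and 0. Median depths were 12357 and 16493 UMIs in the Hulunbuir classes and 5643 and 24541 UMIs in the Ujumqin ones, so the ALDH1A2-positive cells were the deeper ones in both.

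Few cells, 4 in all, had a UMI of both enzymes. Of the 376 Hulunbuir cells with CYP26A1, 1.06% also had ALDH1A2 (0.291 to 2.70), against 3.00% of the 9203 cells without (2.66 to 3.37). The other way round, 1.43% of ALDH1A2-positive cells had CYP26A1 (0.391 to 3.62), against 4.0% of the rest (3.61 to 4.42). Both pairs of intervals rest on the same 4 cells and overlapped slightly. They do not decide whether ALDH1A2 was rarer among CYP26A1-positive cells. In the Ujumqin library 0 of 9 CYP26A1-positive cells had ALDH1A2, which allows a share of up to 33.6%.

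The classes came from different gates. The caudal progenitor gate held 60.5% of the Hulunbuir CYP26A1-positive cells (55.3 to 65.5) and 1.09% of the ALDH1A2-positive cells. The mesenchyme gate held 18.8% of ALDH1A2-positive cells (14.4 to 24.0), the intermediate mesoderm gate 4.35%, and 55.8% had no gate. Cells without a gate kept the same division: 84.5% of the 97 ungated CYP26A1-positive cells had at least 1 caudal marker (75.8 to 91.1), against 19.5% of the 154 ungated ALDH1A2-positive cells (13.5 to 26.6) and 26.5% of those negative for both. Of the 9 Ujumqin CYP26A1-positive cells 4 were in the caudal gate, and of the 141 ALDH1A2-positive cells 33 were in the mesenchyme gate.

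**Figure D3:**
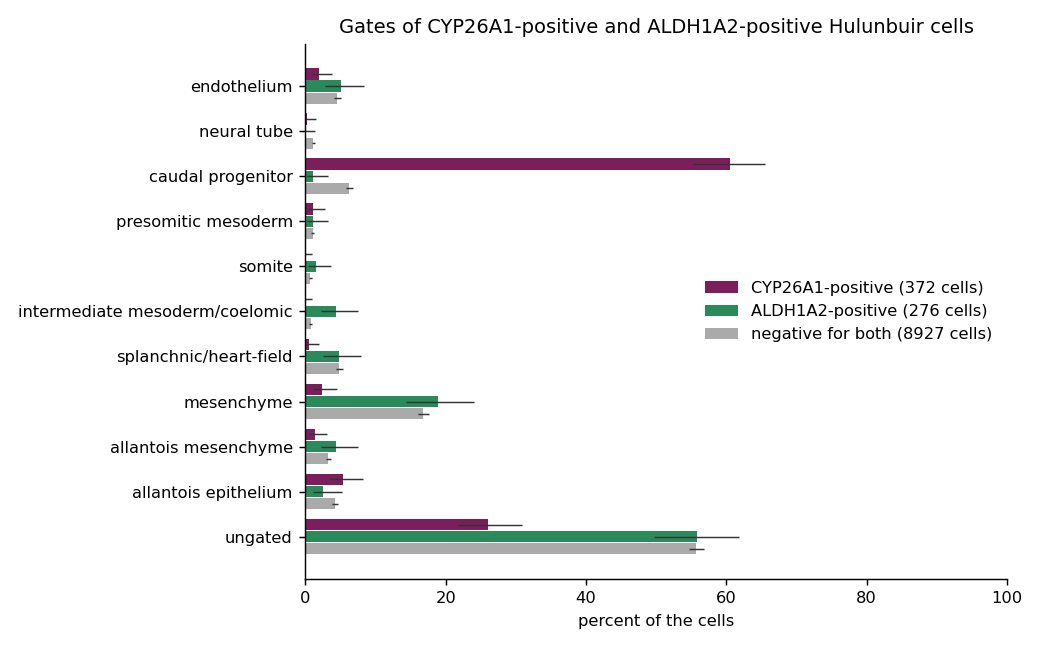
Share of Hulunbuir cells positive for CYP26A1, positive for ALDH1A2 or negative for both that fell in each gate (percent, 95% exact binomial intervals); gates under 1% in all classes are left out. The caudal progenitor gate takes 60.5% of CYP26A1-positive and 1.09% of ALDH1A2-positive cells.

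Genes were called between the classes when they were at 20 CPM or more in some class and differed 4-fold or more, on the log2 scale of CPM plus 1, in the same direction in both libraries. Of 2683 genes tested, 24 were higher in CYP26A1-positive cells (0.895%) and 30 were higher in ALDH1A2-positive cells (1.12%). The median gene differed by a log2 of −0.19 in the Hulunbuir and −0.28 in the Ujumqin library. The Ujumqin CYP26A1-positive class is 9 cells whose UMIs were summed. Their median was 5643 UMIs but the deepest, the allantois epithelium cell, had 130547, so the summed Ujumqin values lean on that cell. The Hulunbuir levels are therefore given first and the Ujumqin log2 beside them.

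On the CYP26A1 side stood signals and factors of the caudal end. FGF8, a ligand that keeps tail-bud cells undifferentiated, was at 264 CPM in CYP26A1-positive and 1.76 CPM in ALDH1A2-positive cells, a log2 difference of 6.58 (5.07 in Ujumqin). The ligand WNT5B was at 276 and 8.04 CPM, log2 4.94 (6.30), and the progenitor factor SOX2 at 110.4 and 3.53 CPM, log2 4.62 (6.97). CDX2, a regulator of posterior HOX genes, was at 99.3 and 8.23 CPM, log2 3.44 (5.14). FGF8, WNT5B and CDX2 are markers of the caudal gate that holds most of these cells, while SOX2 is not.

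The fructose transporter SLC2A5 was at 278 and 2.94 CPM, log2 6.15 (8.61 in Ujumqin). The epithelial adhesion molecule EPCAM stood at 130.3 and 11.96 CPM, log2 3.34 (3.00), and RCN2, a calcium-binding protein of the secretory pathway, at 1275 and 112 CPM, log2 3.50 (2.82). ERICH2, LCK, a kinase best known from T cells, and IGSF9 completed the 10 named genes, with Hulunbuir log2 differences of 3.65, 3.27 and 3.11.

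On the ALDH1A2 side stood matrix genes of mesenchyme. COL1A2, a chain of type I collagen, was at 373 CPM in ALDH1A2-positive and 29.7 CPM in CYP26A1-positive Hulunbuir cells, a log2 difference of −3.61 (−3.59 in Ujumqin). The proteoglycan LUM was at 364 and 36.5 CPM, log2 −3.28 (−5.09), and AKAP12, a scaffold for protein kinases, at 186 and 19.7 CPM, log2 −3.17 (−4.73). Other named genes were the matrix genes POSTN, COL12A1 and LAMA4, the growth regulator DLK1, the myelin protein gene PMP22 and NEBL, with Hulunbuir log2 differences from −4.21 to −3.37.

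SST differed most on this side in the Hulunbuir library, at 130.3 and 0.737 CPM, log2 −6.24, and was at 37.5 CPM and 0 UMIs in the Ujumqin library. These SST levels came from a small part of the ALDH1A2-positive class, as given below. Of the 30 genes on this side, 12 had no UMI in the 9 Ujumqin CYP26A1-positive cells, and their Ujumqin log2 values depend on the added 1 CPM. Against a floor of 3 counts, SST was at least 2.95-fold, DLK1 at least 11.8-fold and COL12A1 at least 7.57-fold higher in Ujumqin ALDH1A2-positive cells. POSTN, PMP22 and LAMA4 were at least 2.06-fold, 1.95-fold and 3.13-fold higher, under the 4-fold limit like SST. At that floor 7 of the 12 were under 4-fold, which leaves 23 genes on this side.

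**Figure D4:**
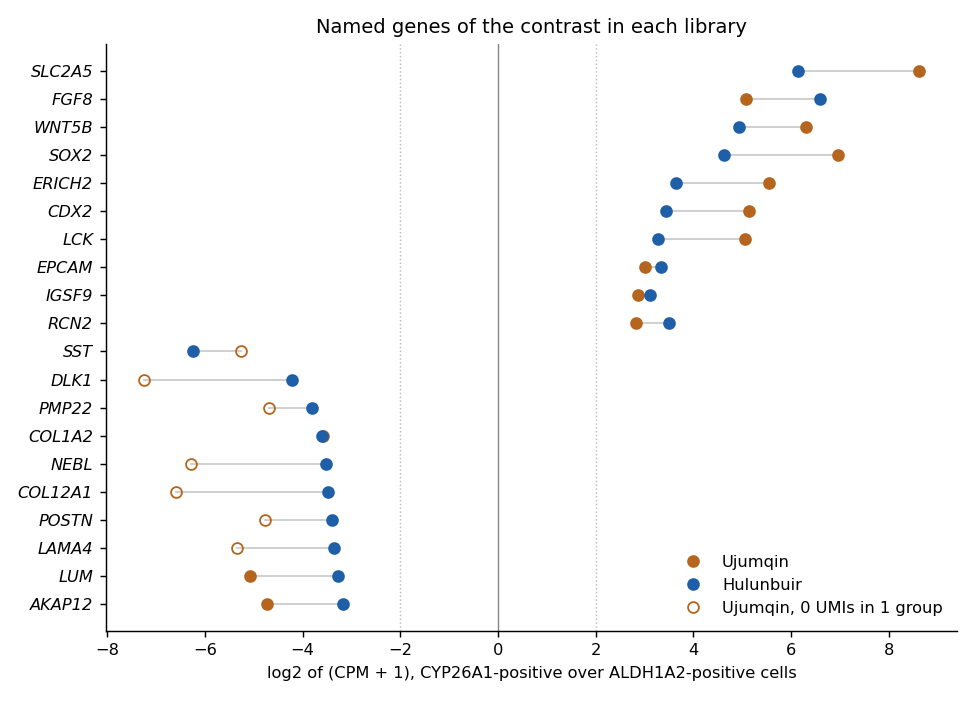
Log2 difference of CPM plus 1, CYP26A1-positive over ALDH1A2-positive cells, for the 10 genes named on each side, brown for the Ujumqin and blue for the Hulunbuir library; dotted lines mark 4-fold, and open points are genes with 0 Ujumqin UMIs in 1 class, whose value depends on the added 1 CPM. FGF8 is at 6.58 and SST at −6.24 in the Hulunbuir library.

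In the Hulunbuir library alone, a contrast added after seeing how few Ujumqin cells were positive, 54 of 3022 genes were higher in CYP26A1-positive cells (1.79%) and 59 were higher in ALDH1A2-positive cells (1.95%). In the first set CDX4, another CDX factor, stood at 59.7 and 3.14 CPM, log2 3.88. SH2D1A, an adaptor of lymphocyte signalling, had no UMI in ALDH1A2-positive cells and was at least 89.7-fold higher in CYP26A1-positive ones. The second set held SST, C1QA and INS beside the heart muscle genes MYH6, MYL7, TNNT2 and MYL4, and 5 of the 7 cardiomyocyte markers tested were among its calls. C1QA and INS had no UMI in CYP26A1-positive cells and were at least 59.5-fold and 58.1-fold higher in ALDH1A2-positive ones. The summed RNA of the ALDH1A2-positive class thus held that of mesenchyme, of the SST, INS and C1QA cells and of heart muscle together. Only 2 of its 276 cells (0.725%) were in the cardiomyocyte gate, and how many cells gave the heart RNA was not tested.

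Pathway lists were read in the same Hulunbuir contrast as counts of called genes. In all lists a gene was tested at 20 CPM or more in either class. One that passed through 1 class alone could be called on that side only. The caudal FGF and WNT ligands had 2 of 2 tested genes higher in CYP26A1-positive cells. The FGF feedback genes, which FGF signalling switches on, also had 2 of 2. FGF8, WNT5B, IL17RD, CDX2 and CDX4 passed through the CYP26A1-positive class alone. All of these but IL17RD are also markers of the caudal gate that holds most of this class, so the counts are not separate support. DUSP6, a phosphatase that damps FGF signalling, was at 342 and 34.7 CPM, log2 3.27, and IL17RD at log2 2.82. The WNT feedback list had 1 gene tested, NKD1, with log2 2.07. Of 12 tail-bud genes 3 were abundant enough to test, CDX2 and CDX4 were called, and LIN28A was at log2 1.52.

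HOX genes lay mostly towards the CYP26A1 side, except the highest-numbered paralogs. Of paralogs 5 to 8, 4 of 6 tested genes were called, with HOXC6 at log2 3.15 and HOXA7 at 2.29, and the list median was 2.08. Of paralogs 9 to 13, 1 of 4 was called, HOXC9 at 2.62, while HOXA11, used in the allantois mesenchyme list, was at −1.59. Under the level limit for testing, HOXA13 was at −1.84 (13 and 57 UMIs) and HOXC12 at −2.95 (2 and 49 UMIs), on the ALDH1A2 side. HOXC11 and HOXD13 leaned the same way on few UMIs, while HOXC10, HOXD9 and HOXD10 lay on the CYP26A1 side. Of paralogs 1 to 4, 1 of 3 was called, HOXC4 at 2.67.

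Genes known to respond to retinoic acid gave no call in either direction among 6 tested. Their median log2 was −1.47, against −0.19 over all genes tested. MEIS1, MEIS2, NRIP1, RARRES1 and RARRES2 were between −0.88 and −1.68, on the ALDH1A2 side, and HOXA3 was at 1.99 on the other. The lateral plate and coelomic list had 2 of 3 genes called on the ALDH1A2 side, GATA6 at −2.95 and TCF21 at −3.09, and the fibroblast matrix list 5 of 6, with a median of −3.11. Since the classes differ in gate, these lists describe the gates as much as the enzymes, and the parts were not separated.

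ALDH1A2-positive cells were also set against cells negative for both enzymes. Of 2517 genes, 1 was 4-fold higher in both libraries (0.0397%) and 2 were lower (0.0795%). The higher one was SST, at 130.3 against 29.7 CPM in the Hulunbuir and 37.5 against 1.48 CPM in the Ujumqin library. AHSG, a plasma protein gene of ExE endoderm, was among the lower ones, at 0.588 against 37.7 CPM in the Hulunbuir and 52.9 against 5518 CPM in the Ujumqin library. The SST level came from a small part of the class. In the Ujumqin library the 19 kept cells with an SST UMI held 5 ALDH1A2 UMIs together. At most 5 of its 141 ALDH1A2-positive cells thus carried SST. In the Hulunbuir library the 201 such cells held 28 ALDH1A2 UMIs, which allows at most 28 of 276. The SST, INS and C1QA cells described above are among the ALDH1A2-positive class, and their exact part in this value was not tested.

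CRABP1 and CRABP2, the cytoplasmic binding proteins, were higher in the CYP26A1-positive than in the ALDH1A2-positive class. Most Hulunbuir cells of the first class were caudal progenitors, and the pattern did not hold for every gate. Neural tube, the described gate with most CRABP1, had 0.773 CPM of CYP26A1 (1 UMI), and somite, with 329 CPM of CRABP2, had none. In Hulunbuir CYP26A1-positive cells CRABP1 was at 1767 CPM (1732 to 1802), against 123 CPM in ALDH1A2-positive cells and 372 CPM in cells negative for both. CRABP2 was at 631, 97.2 and 170 CPM in the same classes. The Ujumqin classes had the same order for CRABP1, at 889, 53.4 and 138 CPM. CRABP2 was highest in the CYP26A1-positive class there too, at 546 CPM against 56.3 and 47.5 CPM. These Ujumqin CYP26A1-positive levels lean on the deepest of 9 cells, though 8 of the 9 had a CRABP1 UMI. A CRABP1 UMI was found in 94.6% of Hulunbuir CYP26A1-positive cells and 41.7% of ALDH1A2-positive cells, the deeper class.

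By gate, CRABP1 was highest in the neural tube gate, 2145 CPM (2066 to 2226), and the caudal progenitor gate, 1753 CPM (1729 to 1778), of the Hulunbuir library. Allantois epithelium followed at 980 CPM and presomitic mesoderm at 893 CPM (842 to 947), and from there the level went down through cardiomyocytes at 379 CPM and somite at 266 CPM to mesenchyme at 39.5 CPM and endothelium at 21.3 CPM. In the Ujumqin library cardiomyocytes were highest at 449.99 CPM (386 to 521), all of it from 9 of 58 cells, then allantois epithelium at 247 CPM, with mesenchyme at 14.7 CPM. The Ujumqin erythroid gate, with 12.1 CPM, did not stand apart from endothelium at 11.5 CPM.

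Level and share of cells ordered the neural tube and caudal gates differently. Thinned to 1000 UMIs, CRABP1 was found in 75.0% of caudal progenitor cells (71.8 to 78.0) but in 38.2% of neural tube cells (28.8 to 48.4), so the neural tube level rested on fewer, richer cells. It was found in 2.86% of endothelial and 0.355% of Ujumqin erythroid cells at that depth.

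CRABP2 was highest in the caudal progenitor gate, at 714 CPM (699 to 730), ahead of presomitic mesoderm at 573 CPM (532 to 616), neural tube at 420.3 CPM (386 to 457) and somite at 329 CPM (294 to 367). These intervals did not overlap. From caudal progenitors to somite CRABP2 went from 714 to 329 CPM, where CRABP1 went from 1753 to 266 CPM, and CRABP2 was at 131 CPM in allantois mesenchyme and 78.2 CPM in mesenchyme. The Ujumqin gates ran from 90.1 CPM in allantois epithelium and 86.4 CPM in cardiomyocytes to 38.0 CPM in mesenchyme, 2.55 CPM in erythroid cells and 2.25 CPM in endothelium.

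Many caudal cells carried both binding proteins. At 1000 UMIs per cell 315 of the 788 caudal progenitor cells had a UMI of both (40.0%), 276 of CRABP1 only, 87 of CRABP2 only and 110 of neither. Along the body axis CRABP1 was at 1855 CPM in T cells, 2039 CPM in MSGN1 cells, 501 CPM in RIPPLY2 cells and 311 CPM in MEOX1 cells, and CRABP2 at 725, 782, 216 and 287 CPM. CRABP1 was thus lower in RIPPLY2 than in MSGN1 cells, and so was CYP26A1. The RIPPLY2 cells also had more RBP4, 88.2 CPM against 20.9 CPM in MSGN1 and 21.7 CPM in MEOX1 cells, and RARB at 4.02 CPM. These levels were nearer to those of the mesenchyme gate, and the part of such cells in the CRABP1 and CYP26A1 values was not tested. Over the 19 gates of both libraries the log levels of CRABP1 and CRABP2 had a Pearson correlation of 0.85, CYP26A1 and CRABP1 of 0.63, and CYP26A1 and ALDH1A2 of −0.11. These points share libraries and depth and are given as a description.

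RBP4, the carrier of retinol in plasma, was found in extraembryonic endoderm and in mesenchyme. The Ujumqin ExE endoderm gate, built on plasma protein genes such as AHSG, AFP and APOA1, had 488 CPM (473 to 503). This level fell to 222 CPM without cells that reached 3 markers of several lists, beside 214 CPM in Ujumqin mesenchyme under the same choice, to 298 CPM without the tenth of cells with most UMIs and to 299 CPM as a mean over cells, so its lead over mesenchyme depends on which cells are counted. In the Hulunbuir library the 10 cells of this gate had 1070.4 CPM (821 to 1372). Mesenchyme had 216 CPM (211 to 222) in the Ujumqin and 155 CPM (150.4 to 160) in the Hulunbuir library, and RBP4 was among the 10 leading genes of the Ujumqin mesenchyme gate. Hulunbuir splanchnic mesoderm was at 154 CPM and allantois mesenchyme at 115 CPM. All other named gates of 50 cells or more were at 40.7 CPM or less, with caudal progenitors at 22.2 CPM.

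RBP4 was also read beside the plasma protein gene AHSG. AHSG was at 61144 CPM in Ujumqin ExE endoderm and 51.3 CPM in mesenchyme. Per 100 AHSG UMIs there were 0.798 RBP4 UMIs in ExE endoderm and 422 in mesenchyme. The erythroid gate had 12.1 per 100. In the Hulunbuir mesenchyme AHSG was at 0.427 CPM, 12 UMIs in all. The part of free RNA in the RBP4 levels was not tested.

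RBP4 was found in most mesenchymal cells, with a UMI in 92.9% of Ujumqin and 80.0% of Hulunbuir cells of that gate. Thinned to 1000 UMIs the shares were 19.7% and 13.6%, and 28.7% in Ujumqin ExE endoderm. In the contrast of the enzymes RBP4 was low in the CYP26A1 class: it was at 26.7 CPM in Hulunbuir CYP26A1-positive cells, 95.4 CPM in ALDH1A2-positive cells and 92.3 CPM in cells negative for both.

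RARB, a receptor that retinoic acid itself induces, was low in all gates. Its Hulunbuir levels ran from neural tube at 6.95 CPM (3.18 to 13.2, 9 UMIs), allantois mesenchyme at 6.23 CPM (4.34 to 8.67), splanchnic mesoderm at 5.26 CPM (3.89 to 6.95) and mesenchyme at 4.19 CPM (3.47 to 5.02, 118 UMIs) down to caudal progenitors at 0.362 CPM (0.0987 to 0.927, 4 UMIs). The first 4 overlapped, and the caudal interval lay under all of them. The gate with the highest CYP26A1 level thus had the lowest RARB level, although its interval overlapped those of presomitic mesoderm at 0.797 CPM, endothelium at 1.59 CPM, somite at 2.02 CPM and cardiomyocytes at 2.54 CPM. Cells with PAX6 (146 cells), a factor of the neural tube, had 6.88 CPM.

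The Ujumqin library had RARB at 1.89 CPM in mesenchyme (1.41 to 2.48, 51 UMIs), 1.76 CPM in endothelium and 0.535 CPM in erythroid cells. In the enzyme classes of the Hulunbuir library it was at 2.21 CPM in CYP26A1-positive cells (12 UMIs) and 4.12 CPM in ALDH1A2-positive cells (21 UMIs), and the Ujumqin CYP26A1-positive class had 1 UMI.

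Other genes of retinoid handling were taken from lists of uptake, oxidation, breakdown and reception, of which 33 were in the files. In the Hulunbuir caudal progenitor gate RARG, another retinoic acid receptor, was at 22.5 CPM (249 UMIs), its highest gate of that library, and allantois epithelium followed at 10.5 CPM. RDH10, which makes retinal from retinol, was highest among Hulunbuir gates in the intermediate mesoderm gate at 7.18 CPM (9 UMIs), so the gate was first in its library for RDH10 and ALDH1A2 alike, with the limit given above on what its cells are.

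STRA6, the membrane receptor for RBP4, was highest among Hulunbuir gates in presomitic mesoderm at 10.4 CPM (13 UMIs). TTR, which carries RBP4 in plasma, was at 13292 CPM in Ujumqin ExE endoderm, and the uptake receptor LRP2 at 31.9 CPM there and 23.2 CPM in Hulunbuir neural tube. The relatives of the enzymes had few UMIs. CYP26B1 had 1 and 3 UMIs and CYP26C1 2 and 1 in the Ujumqin and Hulunbuir libraries outside the erythroid gate, ALDH1A3 had 7 and 11, and ALDH1A1 was highest in Ujumqin endothelium at 5.61 CPM. CYP26A1 was thus the CYP26 gene with most UMIs, at 703 in the Hulunbuir library. Since transcripts are captured unevenly, these counts do not rank the levels of the genes.

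Genes with the most similar pattern to CYP26A1 over the 19 gates, leaving out gate markers, were SH2D1A (Pearson r of log2 levels 0.94), CCDC151 (0.83), RARG (0.82), PABPC1 (0.79) and HOXC6 (0.79). For ALDH1A2 they were MOCS2 (0.86), MORC4, ZNF330, ATXN2 and DDIT3 (0.81), and for RARB they ran from EXOSC1 (0.78) to NOB1 (0.74). The points share libraries, and with few UMIs of ALDH1A2 and RARB in most gates their lists rest on sparse counts.

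Between breeds, 4 of the 6 genes had at least a 2-fold excess in Hulunbuir cells once erythroid cells were set aside, and none was 2-fold lower. Over the 10305 genes with at least 20 UMIs, 18.3% were higher and 5.31% were lower by this measure, with a median log2 of 0.40. CYP26A1 was at 0.161 CPM in the Ujumqin and 5.47 CPM in the Hulunbuir library (16 and 703 UMIs), a log2 of 5.08 (4.37 to 5.90). CRABP2 went from 49.0 to 187 CPM, log2 1.93 (1.88 to 1.97), CRABP1 from 136 to 421 CPM, log2 1.63 (1.60 to 1.66), and RARB from 1.36 to 3.44 CPM, log2 1.34 (1.06 to 1.63).

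ALDH1A2 was at 1.64 and 2.57 CPM, log2 0.65 (0.37 to 0.93), and RBP4 at 173 and 89.6 CPM, log2 −0.95 (−0.98 to −0.91). The RBP4 difference was −0.15 as a mean over cells and −1.12, past 2-fold lower, without ungated cells. These values moved with the make-up of the libraries, 9 against 788 caudal progenitor cells and 534 against 10 ExE endoderm cells, and fewer cells of a type and less RNA per cell cannot be told apart in such sums.

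Of the 4 named gates that both libraries held at 50 cells or more, CRABP2 was higher in the Hulunbuir library in 4, with log2 from 1.04 in mesenchyme to 2.56 in endothelium. CRABP1 was higher in 3, from 0.88 in endothelium to 1.99 in allantois epithelium, and at −0.25 (−0.52 to 0.03) in cardiomyocytes. RARB was higher in mesenchyme, 1.15 (0.67 to 1.65), and its interval held 0 in the other 3. ALDH1A2 was higher in mesenchyme, 0.69 (0.10 to 1.29), and in endothelium, 3.40 (0.72 to 8.78, on 1 and 17 UMIs), and at 1.46 in allantois epithelium with an interval of −0.87 to 4.73.

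CYP26A1 was higher in the 3 gates that gave a value, on 1 and 10 UMIs in mesenchyme (3.26), 6 and 25 in allantois epithelium (1.52, 0.20 to 3.09) and 0 and 10 in endothelium (at least 1.05), and at such counts free RNA from the caudal cells of the Hulunbuir library was not separated from expression. RBP4 differed in direction between gates. It was lower in the Hulunbuir library in mesenchyme, −0.48 (−0.54 to −0.42), higher in endothelium, 1.03 (0.58 to 1.5), and in cardiomyocytes, 3.00 (1.03 to 6.11, on 2 and 32 UMIs), and near equal in allantois epithelium, 0.10 (−0.34 to 0.55).

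**Figure D5:**
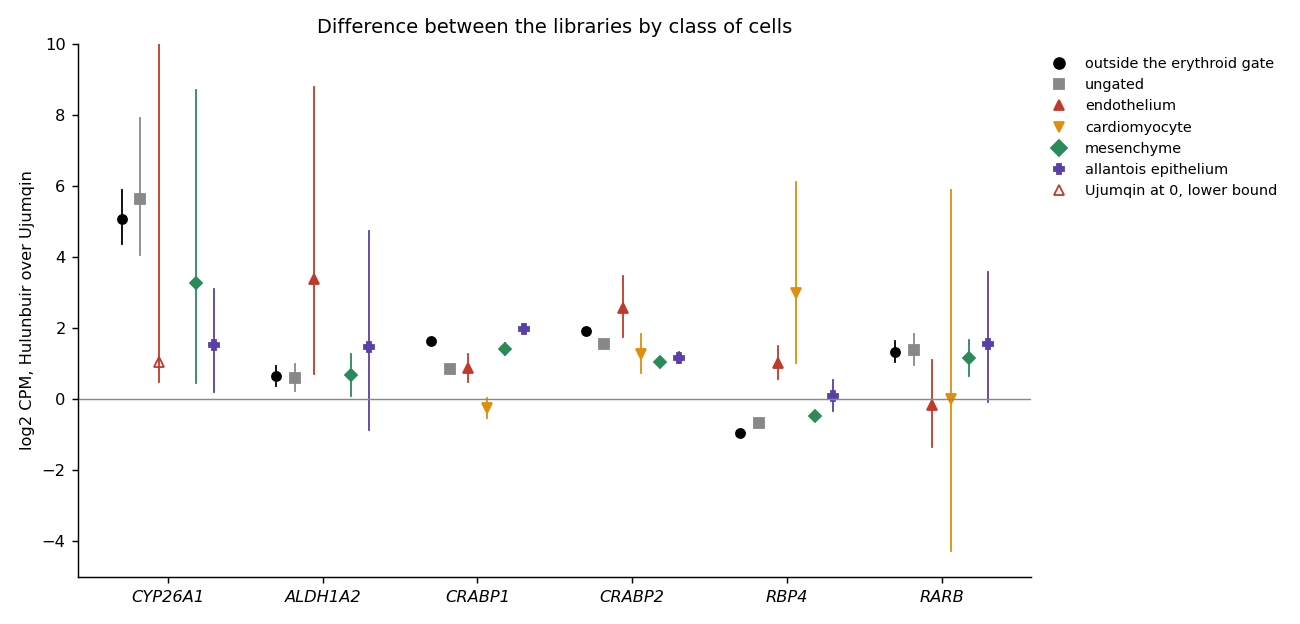
Log2 of Hulunbuir over Ujumqin level for the 6 genes, outside the erythroid gate, in ungated cells and in the 4 gates shared by both libraries, with 95% counting intervals; the open triangle is a lower bound where the Ujumqin library had 0 UMIs. CYP26A1 is at 5.08 outside the erythroid gate, RBP4 at −0.95, and each breed is 1 library.

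Among the other retinoid genes, 24 of the 33 had 20 UMIs or more in some library. STRA6 (log2 3.11), RARG (2.13) and RDH5 (1.06) were 2-fold or more higher in the Hulunbuir library, and TTR (−8.42), RBP2 (−3.25) and RXRG (−2.95) were lower. These are 3 and 3 of 24, with a median of 0.27 beside 0.40 over all genes, and TTR moved with the ExE endoderm cells that the Hulunbuir library hardly held.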

How the data were processed

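The authors deposited 1 gene-by-cell matrix of whole-number UMI counts per library, made with Cell Ranger against the sheep assembly Rambouillet v1.0. The matrix header gives Cell Ranger 5.0.0 and the submitters' processing notes give 3.1.0, with Seurat 3.2.0 and R 3.6.1 for later steps not used here. The deposited counts were read with Python 3.11.15, numpy 2.4.6, scipy 1.17.1 and pandas 2.3.3, and plotted with matplotlib 3.10.9.

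Barcodes under 200 genes or at 10% mitochondrial UMIs or more were left out. Gates needed 3 of 10 markers and more than any of the other lists, and groups were taken from the breed label. UMIs were summed per gate and scaled to CPM, with exact Poisson intervals for levels, exact conditional binomial intervals for ratios and exact binomial (Clopper-Pearson) intervals for shares, all at 95%. A side at 0 was set to a floor of 3 counts. Shares were compared after thinning to 1000 UMIs per cell with shallower cells left out, 3340 of 9479 Ujumqin and 516 of 9579 Hulunbuir cells outside the erythroid gate. A cell was positive at 1 UMI. Contrast calls used log2 of CPM plus 1, a level of 20 CPM in some class and 4-fold in both libraries. With 1 library per breed no test across genes was run. Genes named in the contrast were the 10 on each side with the largest of the smaller ratios of both libraries, and likeness was Pearson's r over gates of 50 cells or more for genes at 20 CPM in some gate.

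The members and lists were chosen with earlier results of these data known. The Hulunbuir contrast, the contrast with negative cells, the groups by single genes, the splits of gates, the thinning to 5000 UMIs and the counts without ungated cells were added after seeing the data. On simulated counts with 200 of 2152 genes changed 8-fold, the call in both libraries recovered 200 and called 0 others. These counts were drawn from 1 summed profile per library, with changes well past the 4-fold limit and no differences between cells. They check how the call is computed and do not measure false calls among real cells, such as the 9 Ujumqin ones. Doublets were kept and no caller was run. Sequences and coordinates of the genes were not used here. Results for a few genes are not reported here.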

Additional observations from a re-analysis of the deposited data

Results flagged for a closer look

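Barcodes that failed the cell filter held UMIs of the genes, in droplets outside every comparison above. The 2505 such Ujumqin barcodes (median 815 UMIs, 24.0% mitochondrial) held 220 UMIs of CRABP1, 60 of CRABP2, 171 of RBP4 and 6 of RARB, the last at 1.79 CPM. The 1126 Hulunbuir ones (median 1359.5 UMIs, 31.8% mitochondrial) held 513 UMIs of CRABP1, 205 of CRABP2, 182 of RBP4, 14 of RARB, 6 of CYP26A1 and 6 of ALDH1A2. CRABP1 was at 65.5 and 188 CPM in these Ujumqin and Hulunbuir barcodes, beside 70.7 and 421 CPM in all kept cells.

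RBP4 differed in direction between gates in the breed comparison, with log2 1.03 in endothelium, 3.00 in cardiomyocytes and −0.48 in mesenchyme. The difference between gates was not tested, since each breed is 1 library.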

How the results depend on the processing

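The 27 results were given 201 alternatives in all. Only the log2 values of Hulunbuir over Ujumqin have a direction, and none of these reversed. Levels, shares and counts of genes cannot be negative, so a reversal could not be tested for them. Of the alternatives for main results 73 stayed within 1.5 times or the counting interval and 36 moved. No paired analysis was possible because each breed is 1 library, and for the same reason no replicate could be left out. As log2 Hulunbuir over Ujumqin, the mean of the cells' CPM gave CYP26A1 3.94, CRABP1 1.06, CRABP2 1.74, RBP4 −0.15 and RARB 2.13. Without cells that reached 3 markers of several lists ALDH1A2 was at 0.31, CRABP1 at 1.15, CRABP2 at 1.71 and RBP4 at −0.80. Without the tenth of cells with most UMIs ALDH1A2 was at 0.21, CRABP1 at 1.10, CRABP2 at 1.88, RBP4 at −0.64 and RARB at 1.70. A minimum of 500 genes gave CRABP1 1.66 and RBP4 −0.98, and gates at 4 markers gave CRABP1 1.70, CRABP2 1.99 and RBP4 −0.88. Without ungated cells, a choice made after seeing the data, CRABP1 was at 2.48, CRABP2 at 2.25 and RBP4 at −1.12. Thinning to 1000 UMIs took the share of CYP26A1-positive cells with ALDH1A2 to 0.

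Counts of called genes moved with the limits. In both libraries, calls on the CYP26A1 side went from 24 to 65 at 2-fold and 49 with no minimum level, and those on the ALDH1A2 side from 30 to 134 at 2-fold, 51 with positive cells at 2 UMIs, 58 with no minimum and 99 after thinning. In the Hulunbuir library the first went from 54 to 128 at 2-fold, 100 with no minimum and 751 after thinning, and the second from 59 to 228 at 2-fold, 115 with positive cells at 2 UMIs, 109 with no minimum and 715 after thinning, where 58 and 20 cells were left. CYP26A1 in the Hulunbuir caudal gate ranged from 37.8 to 58.6 CPM and RBP4 in Ujumqin ExE endoderm from 222 to 680. Depth limits CYP26A1 in the Ujumqin library, with 18 UMIs, and ALDH1A2 and RARB in most gates.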

Other observations

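The highest CRABP1 level of any gate lay in a group too small for the size limit, the neural crest gate, named for markers such as SOX10, FOXD3 and TFAP2A and looked at after its values were seen. Its 12 Ujumqin cells had 7738 CPM of CRABP1 (7362 to 8129) and its 11 Hulunbuir cells 9160.2 CPM (8684 to 9656). These cells held 10.7% and 2.56% of the kept-cell CRABP1 UMIs of their libraries. CRABP2 was at 361 and 311 CPM in the same cells, under its level in the Hulunbuir caudal progenitor gate, and CYP26A1 had no UMI in the Ujumqin ones.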
